A study of Mus musculus with 6 samples.

Results

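The synthesis of polyunsaturated fatty acids in mouse liver was followed through 8 genes, namely the desaturases Fads1, Fads2 and Fads6, the elongases Elovl1, Elovl2 and Elovl5, and the reductases Hsd17b12 and Tecr. They were taken by gene symbol out of 18820 measured genes, from array features annotated to a single symbol. Where a gene has several features, the 1 to stand for it is chosen by the highest mean over all 6 arrays, but each of the 8 genes had 1 feature and no choice was made. The genes were put together with earlier results of the same data in view, so their number and their directions are a description of these livers and no support for a change of the pathway.

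Livers came from C57BL6 mice of 2 months with the Pcyt2+/- genotype (4 mice, replicates 1 to 4) and from wild type C57BL6 mice of that age (2 mice, replicates 3 and 4), and both groups shared the background, the tissue and the snap freezing in liquid nitrogen. The name Pcyt2+/- follows the genotype in the labels, although the titles speak of knock-out mice. Each title names its own mouse. Neither the design of the allele nor the sex and feeding of the mice is given in the sources used here. Pcyt2 makes CDP-ethanolamine, an intermediate of phosphatidylethanolamine synthesis.

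Mammals cannot make linoleic or alpha-linolenic acid, but the liver lengthens and desaturates both into arachidonic acid, eicosapentaenoic acid and docosahexaenoic acid. FADS2 places the first new double bond, an elongase adds carbon from malonyl-CoA, and FADS1 places the next double bond. Each elongation runs through a cycle in the endoplasmic reticulum: an ELOVL enzyme condenses, HSD17B12 reduces, a HACD enzyme dehydrates and TECR reduces again. Desaturases and elongases of this route are known to answer to the transcription factors SREBP-1 and PPARA in liver, and the products are built into phospholipids.

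The 300 bases around the annotated start of 3 of the genes are printed here, because Elovl5 and Fads2 had separate groups in the expression data below and Elovl2, an elongase of the same route, did not. They come from RefSeq on build GRCm38.p6, run 5′ to 3′ on the gene's strand, and hold 250 bases before the start and 50 after it. In all, 7 of the 8 genes had an entry in the RefSeq promoter table, with 9 windows, and Fads1 had none. Capitals mark matches, on either strand, to CCAAT (the box read by NF-Y), GGGCGG (a GC box), CACGTG (an E-box) and TCACNCC (the core of a sterol element).
Elovl5, chr9:77917115-77917414, plus strand: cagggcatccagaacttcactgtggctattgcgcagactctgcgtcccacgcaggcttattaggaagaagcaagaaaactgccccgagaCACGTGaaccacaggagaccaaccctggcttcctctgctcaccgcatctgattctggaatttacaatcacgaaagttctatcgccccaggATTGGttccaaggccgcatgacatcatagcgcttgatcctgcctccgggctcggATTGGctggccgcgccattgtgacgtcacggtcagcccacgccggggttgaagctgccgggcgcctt
Fads2, chr19:10101454-10101753, minus strand: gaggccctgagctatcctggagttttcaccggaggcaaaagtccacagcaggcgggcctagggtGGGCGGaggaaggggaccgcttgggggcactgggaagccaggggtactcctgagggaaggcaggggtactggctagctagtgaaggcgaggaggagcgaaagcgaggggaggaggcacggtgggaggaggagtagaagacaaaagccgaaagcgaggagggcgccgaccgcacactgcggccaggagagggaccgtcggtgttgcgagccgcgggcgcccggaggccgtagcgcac
Elovl2, chr13:41220354-41220653, minus strand, the first of 2 starts: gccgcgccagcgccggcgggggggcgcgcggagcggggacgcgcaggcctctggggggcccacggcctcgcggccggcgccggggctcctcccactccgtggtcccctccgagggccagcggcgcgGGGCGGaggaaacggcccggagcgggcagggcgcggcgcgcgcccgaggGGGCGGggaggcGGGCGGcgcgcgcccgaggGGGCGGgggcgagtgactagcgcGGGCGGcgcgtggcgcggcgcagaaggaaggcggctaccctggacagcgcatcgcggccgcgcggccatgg
The Elovl5 window held 2 CCAAT boxes, both on the opposite strand and beginning 71 and 17 bases before the start, and 1 E-box at 161 bases before it. The Fads2 window held 1 GC box, at 186 bases before the start, and the printed Elovl2 window held 5. The window at the second start of Elovl2, which is not printed, held 0 GC boxes and no other match. Among the 32851 windows of the table, 37.4% held a CCAAT box, 35.7% a GC box, 7.15% an E-box and 15.6% the sterol core. No 2 of the marked matches overlapped in the 3 printed windows. Of all 9 windows, that of Fads6 alone held the sterol core. CCAAT boxes were also held by the windows of Tecr (3) and Hsd17b12 (2) and by the first window of Elovl1 (1). The groups of these genes overlapped in expression. The 3 printed windows were picked by the expression of their genes, and a link between matches and expression was not tested. The base composition also differed, with G and C making up 57.7% of the Elovl5 window, 67% of that of Fads2 and 84.7% of that of Elovl2. A match is a string of letters, not a measured binding site.

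Expression was measured on Affymetrix arrays as log2 values that the authors made with RMA, a method that corrects, normalizes and summarises probe signals. Most genes lay in a narrow low band near 4.40, the median of each array, and 792 of the 18820 genes (4.21%) had a mean above 5. Arrays correlated at 0.9911 to 0.9977 across all features, and the lowest value was between Pcyt2+/- replicate 3 and wild type replicate 4. The 7 hepatocyte markers checked, among them Alb and Ttr, all lay at a mean of 9.56 or higher. Of 29 markers of Kupffer, stellate, endothelial, biliary, lymphoid and fat cells, 1 (Dcn, of stellate cells) had a mean above 5. Pcyt2 itself was lower on every Pcyt2+/- array than on either wild type array (difference of -0.20, SE 0.028, limma adjusted p = 0.264). With each array's median subtracted on the linear scale that difference was -0.97 (1.96-fold, limma adjusted p = 0.0671), and over 16 other settings the adjusted p ran from 0.0529 to 0.964. Pcyt2 lay near the low band, at 4.604 to 4.669 in Pcyt2+/- and at 4.887 and 4.796 in wild type. The 1.96-fold value therefore rests on small remainders. For arrays the number of samples, here 4 against 2, limits the precision.

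**Figure D1:**
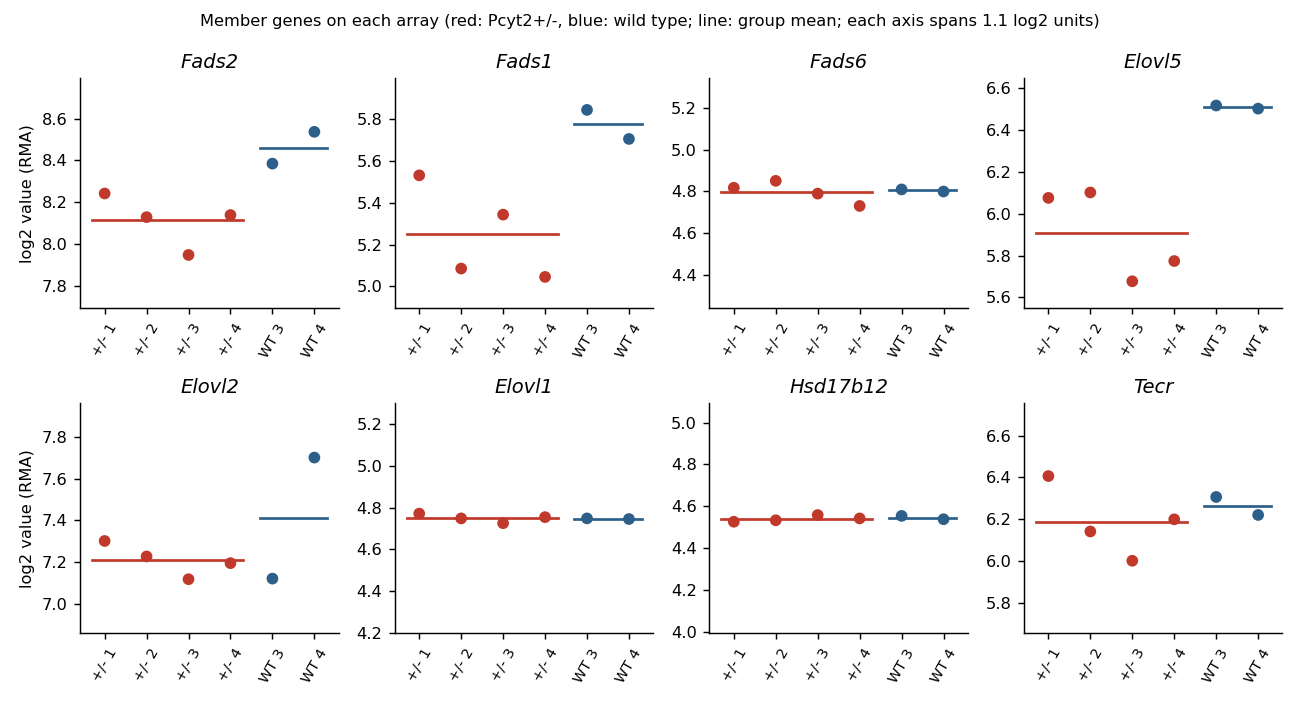
Log2 value of each of the 8 genes on each array, with the group means as lines, red for the 4 Pcyt2+/- and blue for the 2 wild type livers. Each vertical axis spans 1.1 log2 units, so distances compare between panels. In Elovl5, Fads1 and Fads2 every red point lies below both blue points, while Elovl1, Fads6 and Hsd17b12 form nearly flat rows near the bottom of the array's scale.

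The desaturases FADS2 and FADS1 act in turn on the same fatty acids, and both genes had lower values in Pcyt2+/- liver. Fads2, the gene of the first and rate-limiting desaturation, read 8.242, 8.129, 7.948 and 8.139 on Pcyt2+/- arrays 1 to 4, and 8.385 and 8.537 on wild type arrays 3 and 4. All Pcyt2+/- values lay below both wild type values, by 0.143 at the nearest point, and replicate 3 was the lowest. Mean values were 8.11 ± 0.122 (SD, n = 4) in Pcyt2+/- and 8.46 ± 0.108 (SD, n = 2) in wild type. The log2 difference was -0.35 (SE 0.0792, 95% interval -0.535 to -0.158), or 1.27-fold more signal in wild type.

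Fads1 encodes the desaturase that completes arachidonic and eicosapentaenoic acid. Its log2 values were 5.531, 5.085, 5.343 and 5.045 on the Pcyt2+/- arrays and 5.844 and 5.705 on the wild type arrays. The groups were again apart, by 0.174, but the Pcyt2+/- livers spread over 0.486, with replicates 1 and 3 nearer to wild type than replicates 2 and 4. The means, 5.25 ± 0.229 (SD, n = 4) and 5.77 ± 0.0981 (SD, n = 2), were -0.52 apart (SE 0.136, 95% interval -0.846 to -0.201), a ratio of 1.44-fold in favour of wild type.

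Fads1 lies near the low band. Once each array's median was subtracted on the linear scale, its difference was -1.02, or 2.03-fold. The SE grew as well, from 0.136 to 0.292, and the limma adjusted p was 0.402. The same step gave -0.37 for Fads2, whose signal stands far above the band. Fads6, named as a desaturase by its sequence family, sat in that band, with 4.73 to 4.85 in Pcyt2+/- and 4.799 and 4.809 in wild type. The ranges overlapped, and the difference was -0.0071 with a 95% interval of -0.0795 to 0.0653. Its sign turned after quantile normalization (0.0050) and without Pcyt2+/- replicate 4 (0.015).

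Among the elongases, Elovl5 carried the largest difference of the 8 genes. ELOVL5 lengthens the polyunsaturated products of FADS2, and its gene read 6.076, 6.102, 5.677 and 5.774 in Pcyt2+/- against 6.518 and 6.503 in wild type. The wild type arrays were 0.0146 apart, while the Pcyt2+/- arrays split into a higher pair, replicates 1 and 2, and a lower pair, replicates 3 and 4. The nearest Pcyt2+/- value was still 0.401 below wild type. The means of 5.91 ± 0.214 (SD, n = 4) and 6.51 ± 0.0104 (SD, n = 2) gave a difference of -0.60 (SE 0.123, 95% interval -0.896 to -0.31), 1.52-fold more signal in wild type. With the array median subtracted it was -0.86 (SE 0.197), or 1.81-fold. By size of difference Elovl5 stood in place 20, Fads1 in place 24 and Fads2 in place 48 of the 18820 genes. Their places were the same among the 792 genes with a mean above 5.

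Elovl2, whose product carries the chains on towards docosahexaenoic acid, gave another picture. Its values were 7.302, 7.228, 7.119 and 7.196 in Pcyt2+/-, a range of 0.183, and 7.122 and 7.701 in wild type. Both wild type livers thus lay 0.579 apart, the lower of them inside the Pcyt2+/- range, and 18 of the 792 genes with a mean above 5 had a gap between these arrays at least as large. The mean difference was -0.20 (SE 0.143, 95% interval -0.54 to 0.139). It was -0.49 without wild type replicate 3 and turned to 0.089 without wild type replicate 4.

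Elovl1, the elongase of saturated and monounsaturated very long chains, lay in the low band at 4.725 to 4.771 in Pcyt2+/- and at 4.745 and 4.748 in wild type. The difference was 0.0029 with an interval of -0.031 to 0.0369, and its sign turned without Pcyt2+/- replicate 1 (-0.0044).

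The reductases of the elongation cycle serve every ELOVL enzyme. Tecr, which closes the cycle, read 6.406, 6.141, 6.001 and 6.199 in Pcyt2+/- and 6.306 and 6.22 in wild type. Replicate 1 lay above both wild type arrays and the other three lay below them, so the groups overlapped. The difference was -0.076 (SE 0.0991, 95% interval -0.312 to 0.16), with -0.149 without Pcyt2+/- replicate 1 and -0.014 without Pcyt2+/- replicate 3. Hsd17b12, which performs the first reduction, was in the low band throughout, at 4.526 to 4.558 in Pcyt2+/- against 4.538 and 4.554. Its difference of -0.0061 had an interval of -0.0355 to 0.0233, and the sign turned without wild type replicate 3 (0.0017).

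**Figure D2:**
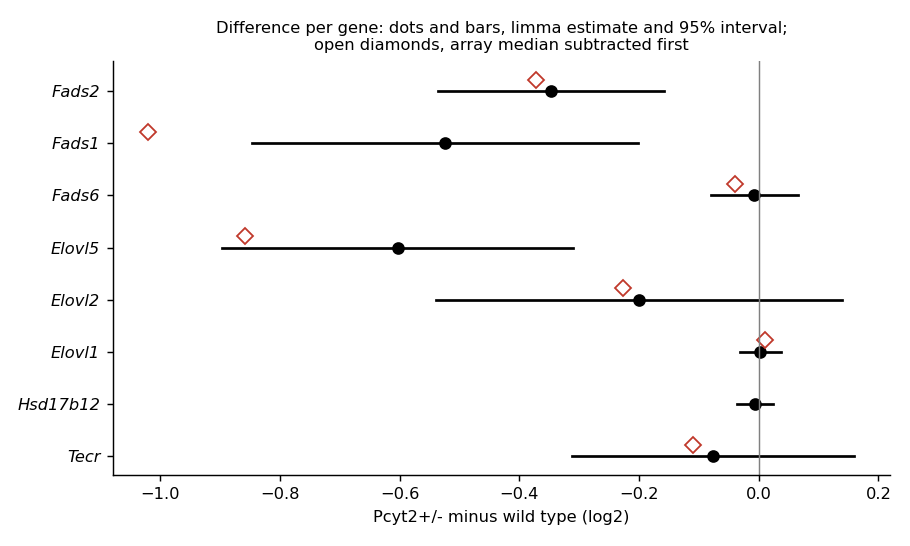
Difference between the group means (Pcyt2+/- minus wild type, log2) for the 8 genes, as dots with 95% intervals from limma. Open diamonds give the difference after the array median was subtracted on the linear scale, without an interval. The intervals of Elovl5, Fads1 and Fads2 lie below 0 before adjustment for the number of genes, and the diamond of Fads1 stands at -1.02 against a dot at -0.52.

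None of the 8 genes passed the test over all genes. Limma, a linear model that borrows variance across genes, gave a Benjamini-Hochberg adjusted p of 0.511 for Elovl5, 0.607 for Fads2, 0.679 for Fads1 and 0.956 to 0.997 for the other 5. It called 0 of 18820 genes, or 0%, at an adjusted p under 0.05. Before adjustment, at p under 0.05, Elovl5, Fads2 and Fads1 were lower and 0 of the 8 were higher. That share of 3 in 8 stands beside 3.44% of all genes lower at this level (2.87% after quantile normalization), 1.86% higher (2.4%), and 14.6% lower among genes with a mean above 5. Of the 8 genes, 5 have a mean above 5, which are Fads2, Elovl2, Tecr, Elovl5 and Fads1.

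By means alone, 7 of the 8 genes were lower in Pcyt2+/-, Elovl1 excepted, where 51.9% of all genes (50.9% after quantile normalization) and 62.4% of those with a mean above 5 were lower. The median difference was -0.138 over the 8 genes, -0.00073 over all genes and -0.0201 over genes with a mean above 5. The median was -0.228 without wild type replicate 3 and -0.066 without wild type replicate 4. The 3 genes with separate groups, all on the lower side, stand beside 7.17% of all genes and 15.3% of genes with a mean above 5 on that side, and 5.67% of all genes on the higher side. As the 8 genes were chosen with such values known, these counts are a description.

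**Figure D3:**
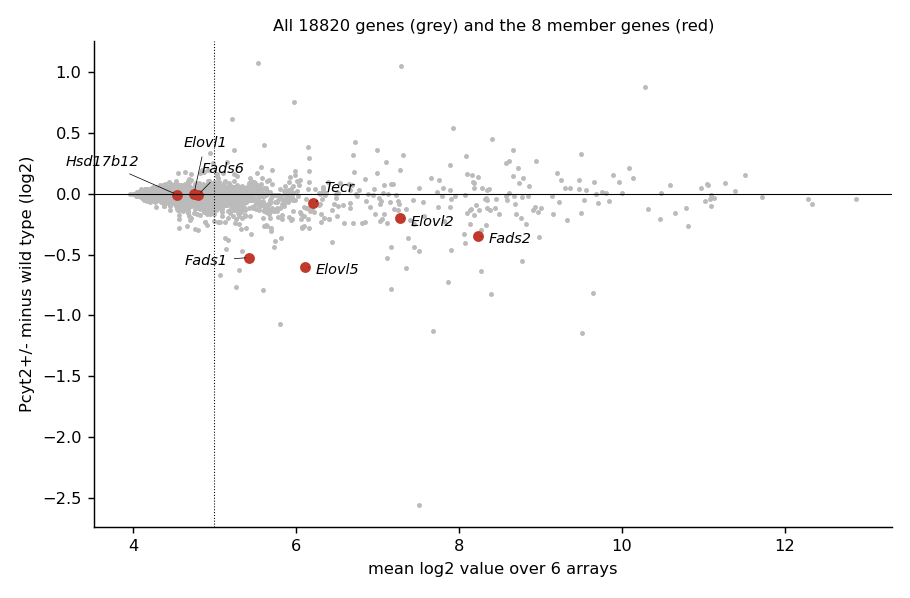
Difference between the groups (vertical axis, log2) against the mean log2 value over 6 arrays (horizontal axis) for 18820 genes in grey and the 8 genes in red, with a dotted line at a mean of 5. Elovl1, Fads6 and Hsd17b12 lie inside the dense low band, and Elovl5 and Fads1 lie below most genes of their level.

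The order of the livers was not the same for every gene. Within the Pcyt2+/- group, replicate 1 was the highest and replicate 3 the lowest for Fads2, Elovl2 and Tecr alike. For Elovl5 the highest was replicate 2, and for Fads1 the lowest was replicate 4. Replicate 3, which with wild type replicate 4 formed the pair of lowest correlation named above, was second highest for Fads1 and lowest for Elovl5. Without it the differences were -0.526 for Elovl5, -0.554 for Fads1 and -0.291 for Fads2. Over the 6 arrays, profiles centred on each gene's mean differed by a root mean square of 0.166 between Elovl5 and Fads2, 0.208 between Fads1 and Fads2, and 0.211 between Elovl5 and Fads1. The 3 genes themselves varied by 0.322 (Elovl5), 0.298 (Fads1) and 0.19 (Fads2) about their means.

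**Figure D4:**
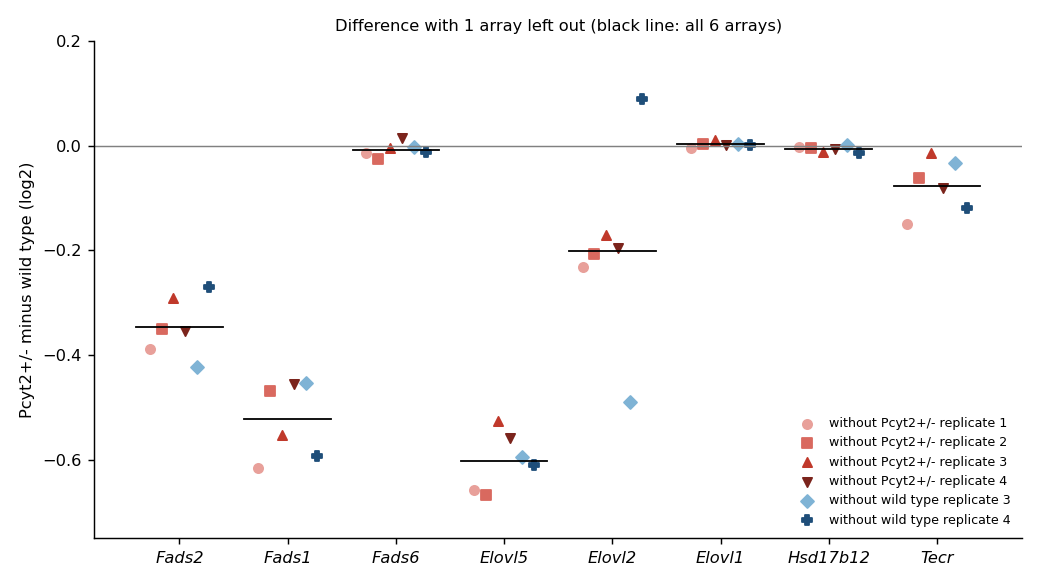
Difference for each gene with 1 array left out at a time (log2, symbols by the array left out, black lines for all 6 arrays). Elovl5 stays between -0.668 and -0.526, Fads1 between -0.617 and -0.454 and Fads2 between -0.423 and -0.27, while Elovl2 runs from -0.49 to 0.089 with the wild type array that is left out.

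Other genes had profiles nearer to each of them than they were to each other. Among genes with a mean above 5, Cdo1, which starts cysteine oxidation, was nearest to Elovl5 (root mean square difference of 0.113 over 6 arrays), followed by Ahcy (0.126), of the methionine cycle, and Ehhadh (0.133), of peroxisomal oxidation. Their own differences were -0.44, -0.61 and -0.51. Nearest to Fads1 were the cytochrome P450 genes Cyp2c39 (0.0984) and Cyp2a5 (0.122), with differences of -0.62 and -0.47 (-0.27 for Cyp2a5 without wild type replicate 3), and Oat (0.122), the ornithine aminotransferase, with -0.36. Nearest to Fads2 were Ube2d3 (0.0451), a ubiquitin-conjugating enzyme, and Slc38a4 (0.0547), an amino acid transporter, with -0.30 and -0.36. Ube2d3 had -0.17 with the mean of its features in place of the brightest, so its likeness is that of a single feature. These likenesses are descriptions over 6 arrays and carry no test.

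Fads1 and Fads2 are neighbours on chromosome 19, with Fads3, a relative in the same cluster, next to Fads2. Fads3 lay in the low band with a difference of -0.019 (SE 0.013), and -0.0054 without wild type replicate 3. A measured neighbour of Elovl5 on chromosome 9 is Gclc, which makes the first intermediate of glutathione. Gclc lay on the opposite side from Elovl5, at 5.58 ± 0.0356 (SD, n = 4) in Pcyt2+/- and 5.41 ± 0.0394 (SD, n = 2) in wild type, higher by 0.17 (SE 0.0258, limma adjusted p = 0.31). The remaining measured neighbours of the 3 genes had differences from -0.084 (Rn7sk, a small nuclear RNA) to 0.033 (Fen1, a DNA repair nuclease). The value of Fen1 was 0.017 without wild type replicate 3 and 0.00098 with the mean of its features in place of the brightest.

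Other elongases and desaturases were mostly in the low band. Of 10 measured genes in a list of this kind, 0 passed the adjusted test, 8 had a lower and 2 a higher mean, and the median difference was -0.022. Scd1, the stearoyl-CoA desaturase that makes monounsaturated chains, read 7.75 ± 0.226 (SD, n = 4) in Pcyt2+/- and 8.21 ± 0.392 (SD, n = 2) in wild type. Its difference of -0.46 was -0.18 without wild type replicate 3 and -0.74 without wild type replicate 4. Elovl3, an elongase of saturated and monounsaturated chains, differed by -0.36, and by 0.088 without wild type replicate 4, the array that also set the sign for Elovl2. Elovl6, which lengthens palmitate, had -0.029.

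Genes that hand electrons to the desaturases or complete the cycle gave no call. In this list 0 of 10 measured genes passed, 8 had a lower and 2 a higher mean, and the median was -0.054. Cyb5a, the cytochrome b5 that feeds desaturases, differed by -0.082 (SE 0.101), and by 0.015 without wild type replicate 3. Its reductase Cyb5r3 differed by -0.15 (SE 0.0764), and by 0.011 without that same array. The dehydratase Hacd2, the step between both reductases, had -0.098 (SE 0.139), and 0.020 without Pcyt2+/- replicate 3. With the mean of its features in place of the brightest, Hacd2 had -0.038. Hacd3 had -0.089 (-0.0076 without wild type replicate 4). Hsd17b4, which serves peroxisomal shortening of long polyunsaturated chains, had -0.076 (SE 0.0235, limma adjusted p = 0.817), and -0.041 without wild type replicate 4.

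Genes that break down or use polyunsaturated chains were mostly lower by their means. Of 13 measured genes, 12 had a lower and 1 a higher mean with a median of -0.085, and 0 passed the adjusted test. Before adjustment, 8 were lower and 0 higher at p under 0.05, beside 3.44% of all genes lower and 1.86% higher, and 14.6% lower among genes with a mean above 5. Of the 13 genes, 4 had a mean above 5, so most are dimmer than the genes behind the 14.6%. Mfsd2a, Decr1, Eci1, Acaa1a and Acaa1b lay in or near the low band, with means of 4.531 to 4.945. Mfsd2a, the carrier of docosahexaenoyl lysophosphatidylcholine, stood at 4.49 ± 0.0314 (SD, n = 4) in Pcyt2+/- and 4.70 ± 0.0297 (SD, n = 2) in wild type, lower by 0.21 (limma adjusted p = 0.13). With a trended and robust variance prior its adjusted p by limma was 0.016, the lowest of 15 other settings (up to 0.964), while 0 of the 8 genes passed under that prior. Mfsd2a, at a mean of 4.559, was too dim to be kept when array medians were subtracted. Decr2, the peroxisomal dienoyl-CoA reductase needed for unsaturated chains, differed by -0.21 and its mitochondrial counterpart Decr1 by -0.069 (-0.034 without wild type replicate 4). Eci1, the enoyl-CoA isomerase, had -0.085. The peroxisomal thiolases Acaa1b and Acaa1a had -0.16 and -0.090 (-0.097 and -0.054 without wild type replicate 3). Lpcat3, which adds polyunsaturated chains to lysophospholipids, was the 1 gene with a higher mean, by 0.057 (0.020 without Pcyt2+/- replicate 2).

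**Figure D5:**
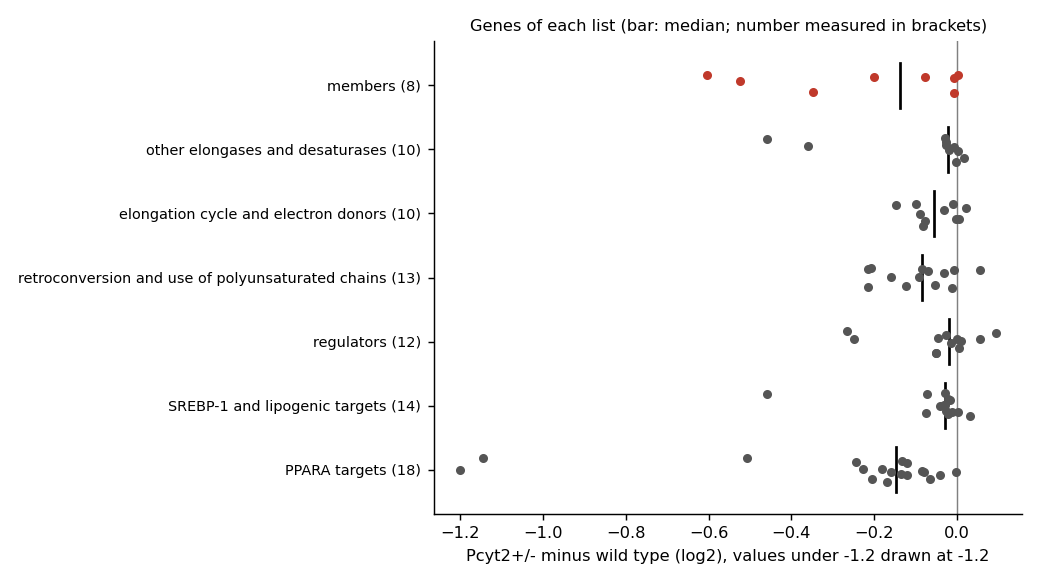
Difference (Pcyt2+/- minus wild type, log2) of each measured gene in the 8-gene group (red) and in 6 other lists (grey), with the list median as a bar. Values under -1.2 are drawn at -1.2, which applies to Cyp4a14. The median is -0.138 for the 8 genes, -0.022 for other elongases and desaturases, and -0.147 for PPARA targets, and the lists share some genes with each other. Genes with a mean above 5 number 5, 2 and 10 in the lists just named, in that order.

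Transcription factors known to govern the route, and their partners, had differences of both signs. Of 12 measured regulators, 0 passed the adjusted test, and the median was -0.020. Before adjustment, 1 was lower and 2 were higher at p under 0.05, beside 3.44% and 1.86% of all genes. The 2 higher genes, Scap and Mlxipl, have a mean above 5, and 44 of the 792 genes with such a mean were higher at this level. Srebf1 differed by -0.00024 (SE 0.014), a sign that turned with quantile normalization (0.00254) and without some single arrays, and Ppara by -0.051 (-0.015 without wild type replicate 4). Nr1h3, the liver X receptor that drives Srebf1, had -0.014, and 0.00049 without wild type replicate 3. Insig1, itself an SREBP target that holds SREBP back, had -0.26 (SE 0.0715, limma adjusted p = 0.723), and -0.13 without wild type replicate 3. With array medians subtracted the difference of Insig1 was -1.44, or 2.72-fold (limma adjusted p = 0.326). Insig1 lay near the low band, at 4.58 ± 0.0554 (SD, n = 4) in Pcyt2+/- and 4.84 ± 0.191 (SD, n = 2) in wild type. That fold therefore rests on small remainders. Scap, which escorts SREBP, had 0.057, with overlapping groups. Mlxipl, the carbohydrate response factor ChREBP, had 0.094 (0.043 without wild type replicate 4). Hnf4a, a master regulator of hepatocyte genes, had -0.25, and 0.038 without wild type replicate 4.

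Known targets of SREBP-1 and PPARA were counted in lists of their own. Lipogenic targets of SREBP-1 had a median of -0.028 over 14 measured genes, with 0 called, and before adjustment 3 were lower and 0 higher at p under 0.05, beside the 3.44% and 1.86% of all genes. Those were Scd1, Fasn, the fatty acid synthase, with -0.075, and Me1, which supplies NADPH, with -0.039 (-0.022 without wild type replicate 4). With array medians subtracted, Scd1, Fasn and Me1 had -0.50, -0.56 and -0.16. Fasn and Me1 lay near the low band, at means of 4.606 and 4.805 against 7.907 for Scd1. Their subtracted values rest on small remainders and do not compare with that of Scd1. Of the 14 genes, 2 had a mean above 5, against 10 of the 18 PPARA targets, so the medians of both lists do not compare directly. Targets of PPARA had a median of -0.147 over 18 measured genes, with 0 called, and 14 were lower and 0 higher at that level, beside the same shares of all genes and 14.6% lower among genes with a mean above 5. The fatty acid omega-hydroxylases Cyp4a14 and Cyp4a31 differed by -2.56 and -1.15, the lowest values of the list. Their limma adjusted p was 0.13, and they passed 0.05 in 4 and 5 of 17 other settings (adjusted p of 0.00397 to 0.964 and 0.000347 to 0.964). Cyp4a14 stood at 6.66 ± 0.388 (SD, n = 4) in Pcyt2+/- and 9.22 ± 0.189 (SD, n = 2) in wild type. The carnitine acetyltransferase Crat had -0.23 (-0.60 with array medians subtracted), the carnitine palmitoyltransferase Cpt1a -0.20, and Acadl and Hadhb, of mitochondrial beta-oxidation, -0.14 and -0.083. Acadl and Hadhb lay in the low band, at means of 4.556 and 4.58. Acadl passed in 1 of 15 other settings (limma adjusted p of 0.0407 to 0.964). Beside these, the median over all genes with a mean above 5 was -0.0201. How far either factor bears on Elovl5, Fads1 or Fads2 in these livers was not tested. In whole liver, fewer cells of a type and less RNA per cell cannot be told apart.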

How the data were processed

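Livers of 4 Pcyt2+/- and 2 wild type mice were measured on 1 Affymetrix array each. The deposited values are on the log2 scale. They come from RMA, which the authors ran according to the submitters' processing notes, with version and genome build not given in the sources used here. Of 28996 features, 21218 had 1 gene symbol in the platform annotation, and the brightest feature stood for each of 18820 genes.

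Differences (Pcyt2+/- minus wild type) were fitted for all genes at once with limma 3.58.1 in R 4.3.3 (lmFit, eBayes, two-sided, no covariates), Benjamini-Hochberg adjusted, with a threshold of 0.05. No set test was run. The fit was run on simulated data with planted differences to check its estimates, and its power is not reported here. Python 3.11.15, numpy 2.4.6, pandas 2.3.3 and matplotlib 3.10.9 did the rest. The subtraction of array medians on the linear scale set lower results to 1 and kept genes with a mean above 4.6.

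The 8 genes, the lists, the tests and the other settings were chosen with earlier results of these data known. Named are the 8 genes, genes of fixed lists (in lists over 12 genes, from the 6 with the smallest p, and Lpcat3 as the 1 higher gene), chromosome neighbours in RefSeq and the genes with the nearest profile. Some genes of these lists were not analysed here, and the counts are over the measured genes.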

Additional observations from a re-analysis of the deposited data

Results flagged for a closer look

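Of 51 named genes, 3 had 1 Pcyt2+/- array far from the other three, by the gap to its neighbour divided by the range of the 4 values. About 1 in 20 such groups pass by chance, and none of the 8 genes of polyunsaturated fatty acid synthesis was among them. For Hacd2, the dehydratase of the elongation cycle, replicate 3 read 5.471 and the nearest array 5.924, a ratio of 0.924. For Lpcat3, which adds polyunsaturated chains to lysophospholipids, replicate 2 read 5.374 and the nearest 5.229, a ratio of 0.925. For Slc38a4, the transporter with a profile near Fads2, replicate 3 read 7.009 and the nearest 7.299, a ratio of 0.851.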

How the results depend on the processing

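The comparison was repeated under 17 other settings. Under each of them 0 of the 8 genes were called, and Elovl5, Fads1 and Fads2 stayed lower in Pcyt2+/- (adjusted p of 0.17 to 0.964, 0.242 to 0.985 and 0.17 to 0.978). The count of all genes called, 0 as deposited, was 3 among genes with a mean above 5, 3 with array medians subtracted, 9 with a trended and robust prior, 2 with the replicate block and 0 to 9 with 1 array left out. The median over the 8 genes, -0.138 as deposited, was -0.346 among the 5 genes with a mean above 5, -0.227 with array medians subtracted (7 genes, without Hsd17b12), -0.208 with the replicate block and -0.228 to -0.0664 with 1 array left out. Some signs turned: with quantile normalization Fads6 (0.00496) and Srebf1 (0.00254), and with the replicate block Elovl1 (-0.00732), Hsd17b12 (0.00391) and Srebf1 (0.00195). With 1 array left out, Srebf1 ran from -0.00651 to 0.00749, Elovl1 from -0.00439 to 0.0112, Fads6 from -0.0247 to 0.015, Hsd17b12 from -0.0139 to 0.00171, Elovl2 from -0.49 to 0.0891, Hacd2 from -0.156 to 0.0202, Cyb5a from -0.178 to 0.0151, Cyb5r3 from -0.304 to 0.0112, Nr1h3 from -0.0288 to 0.000488, Elovl3 from -0.808 to 0.0884 and Hnf4a from -0.533 to 0.0381. Of 35 other named genes with a value once array medians were subtracted, 24 had a difference over 1.5 times larger and 0 turned sign. In fits with a single wild type array, that array is taken to vary as the Pcyt2+/- group does.

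The replicate block used the numbers 3 and 4, which both groups share by title alone. Pcyt2+/- arrays without a wild type array of the same number drop out of its difference, so little is left to estimate the variance. The limma adjusted p of 0.17 for Elovl5 and Fads2 came from this block. Same-numbered arrays deviated from their group means with correlations of 0.113 and 0.153 across 792 genes with a mean above 5, and nothing else ties the numbers. The deviations of the wild type arrays are exact opposites of each other, so these correlations are not separate checks. Signals in or near the low band, as for Elovl1, Fads6, Hsd17b12, Pcyt2, Insig1, Mfsd2a, Fasn, Acadl and Hadhb, limit what these arrays can show.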
